A study of Caenorhabditis elegans with 12 samples.

Results

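The arms of chromosomes II and III of Caenorhabditis elegans are the outer parts of these autosomes, bounded here at fixed positions without use of any measured value. The II left arm was the first 5090 windows of 1000 bases of chromosome II, and the II right arm ran from 10190001 to 15280000 and also held 5090. The III left arm was the first 4590 windows of chromosome III, and the III right arm ran from 9190001 to 13784000 with 4594. In all, 19364 of the 100257 windows of the table lay in these 4 arms. Of these, 9765 had a mean coverage of at least 1 over the 12 libraries and were tested, 2092 in the II left arm, 2586 in the II right arm, 2381 in the III left arm and 2706 in the III right arm.

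The samples were young adult hermaphrodites of the mutant hrde-1(tm1200) and of the wild type strain N2, both kept at 23 C and taken after 3 or 4 generations. RNA came from whole animals, from nuclei pelleted through sucrose and from the sucrose layer above them, taken as cytoplasm. Ribosomal RNA was removed and poly(A) was not selected, so unprocessed RNA was measured too. The 6 groups of genotype and fraction held 2 libraries each, 1 per generation, and no label ties them to separate cultures, so the spread that p-values rest on is that of these libraries and may be technical. The worms were ground as a whole, so germline and body cells are mixed, and in such bulk samples more RNA per cell cannot be told apart from more cells of a type. Marker genes of the germline or of the fractions were not analysed here.

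Worm autosomes have a gene-dense central region and 2 arms with more repeats, more meiotic recombination and more repressive chromatin. HRDE-1 is an Argonaute protein of germline nuclei. It carries small RNAs to nascent transcripts and is needed for heritable silencing and for histone H3 lysine 9 methylation at its targets, many of them retrotransposons and other repeats. The table marks windows as GRTS or GRH, names used in this field for regions whose transcriptional silencing, or whose heterochromatin, depends on nuclear RNAi in the germline. The sources used here do not say how windows were marked. The marks may rest on these libraries, so the direction of marked windows is not independent evidence.

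The 4 arms were unequal in depth. The value of 1 read gave 191276 to 907993 read equivalents per library, fewest in the N2 cytoplasmic pair with 191276 and 263410. The II left arm held 4350 to 25577 read equivalents, the II right arm 10121 to 52049, the III left arm 8209 to 40534 and the III right arm 8261 to 49320, in each arm fewest in N2 cytoplasmic RNA and most in N2 nuclear RNA. The share of windows above the floor of 0.1 differed between fractions. In all 4 arms together it was 54.5% ± 1.77 (SD, n = 2) in hrde-1 whole RNA and 53.1% ± 2.62 in N2 whole RNA. It was 59.7% ± 3.46 in hrde-1 nuclear RNA and 65.8% ± 1.84 in N2 nuclear RNA. The cytoplasmic fraction had 40.8% ± 2.62 in hrde-1 and 31.6% ± 3.04 in N2.

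The II left arm was the quietest. Its mean coverage in whole RNA was 4.84 ± 0.0462 in hrde-1 and 4.95 ± 0.276 in N2 (SD, n = 2 here and below). The III left arm had 8.89 ± 0.270 in hrde-1 and 9.46 ± 0.476 in N2. The III right arm had 10.3 ± 0.403 in hrde-1 and 11 ± 0.601 in N2, and the II right arm 10.4 ± 0.328 in hrde-1 and 10.6 ± 0.497 in N2. The right arms of both chromosomes therefore lay within their spread of each other, and the III left arm lay below them by more than the SDs. Each arm was below the centre of its own chromosome, which had 12.2 ± 0.356 in hrde-1 and 12.7 ± 0.594 in N2 on II, and 18.8 ± 0.482 in hrde-1 and 19.5 ± 0.875 in N2 on III. Over the 12 libraries the mean of the II left arm was 0.373 to 0.427 of that of its centre. The same ratio was 0.834 to 0.934 for the II right arm, 0.466 to 0.515 for the III left arm and 0.492 to 0.626 for the III right arm.

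Within each arm, mean coverage was highest in the inner part, toward the centre of the chromosome. The median window did not follow this in the right arms. Over the 12 libraries it was 1.08 in the inner and 1.13 in the middle part of the II right arm. In the III right arm it was 1.53 in the inner and 2.06 in the middle part. In the II left arm, the inner part from 3394001 onward had a whole RNA coverage of 7.01 ± 0.00519 in hrde-1 and 7.39 ± 0.292 in N2. The middle part of that arm, from 1697001 to 3394000, had only 3.01 ± 0.134 in hrde-1 and 2.84 ± 0.233 in N2. Its median window, 0.597, was close to the 0.617 of the inner and outer parts. This middle part held 14 of the 17 GRTS windows of the II left arm, in stretches of 9 from 2150001 and 5 from 2516001. In the III right arm the middle part also had the lowest mean coverage but the highest median, and all 6 GRTS windows lay in the outer part. In the III left arm, the inner part had 16.0 ± 0.528 in hrde-1 and 17.2 ± 1.02 in N2, against 5.51 ± 0.132 in hrde-1 and 5.75 ± 0.231 in N2 in the outer part. At the inner edge itself, the 100 windows just inside the II left arm had a mean coverage of 18.0 over the 12 libraries and the 100 just outside, in the centre, had 3.61. The boundary of this arm thus ran beside an active stretch, and at the III right arm the order was the reverse, with 7.35 inside and 9.38 outside.

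**Figure D1:**
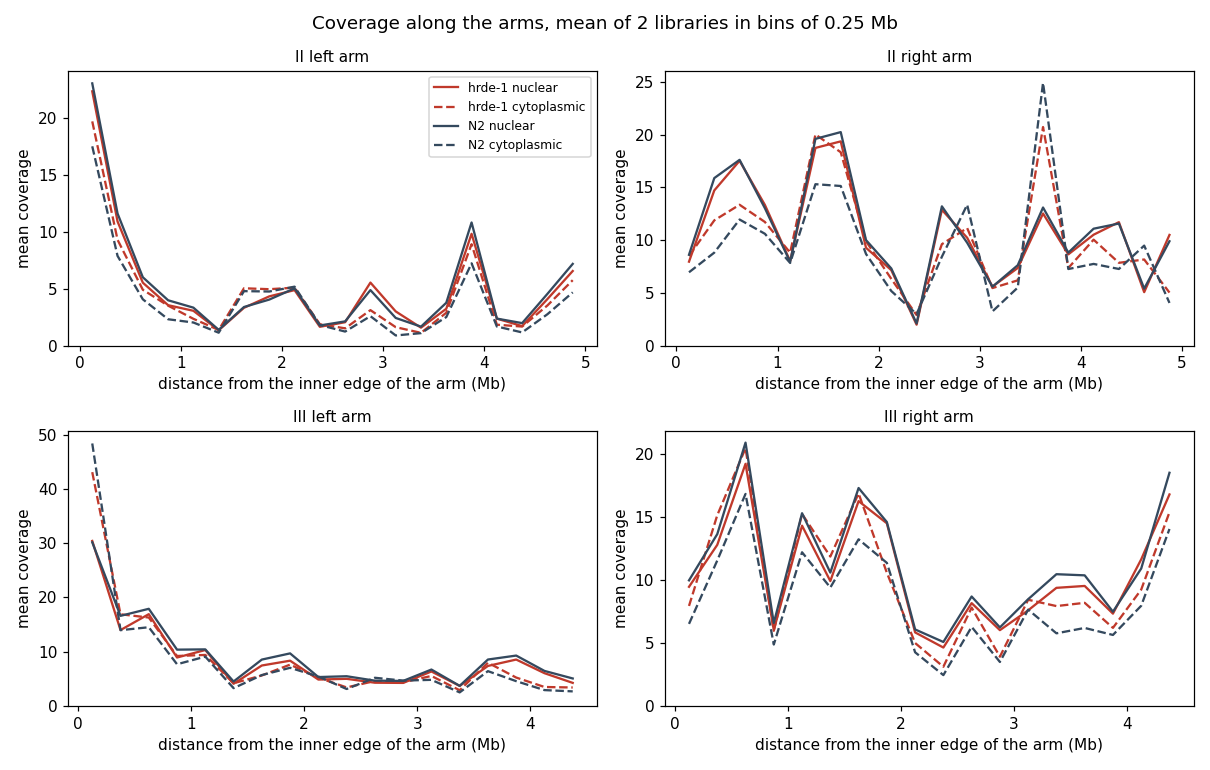
Mean coverage (2 libraries per group) in bins of 0.25 Mb against the distance from the inner edge of each arm in Mb, for nuclear RNA (solid) and cytoplasmic RNA (dashed) of hrde-1 (red) and N2 (dark). The genotypes follow the same peaks in every arm, and the left arms of both chromosomes are highest next to the centre.

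A few windows carried much of the signal. The 10 highest windows of the II left arm held 15.1% to 26.1% of the arm's signal in a library, those of the III left arm 13.7% to 29.0%, and those of the II right and III right arms 9.1% to 18.6% and 7.9% to 12.8%. The highest window of all 4 arms was on III from 4369001 to 4370000. Its cytoplasmic coverage was 2440 and 2770 in hrde-1 against 4070 and 3730 in N2, without overlap. In nuclear RNA it read 1110 and 1110 in hrde-1 and 977 and 818 in N2. The next highest on that arm, III from 4379001, had the same pattern, with a cytoplasmic coverage of 1320 and 1490 in hrde-1 against 2180 and 2000 in N2, but did not pass the test (limma, log2 difference -0.58, adjusted p = 0.0623). On the II right arm, 12944001 read 1040 and 1520 in hrde-1 and 2220 and 1960 in N2 cytoplasmic RNA. In contrast, the genotypes overlapped at II from 3245001, with 1030 and 924 in hrde-1 and 1190 and 715 in N2 cytoplasmic RNA. Over all libraries that window ranged from 630 to 1190, and III from 13463001 from 686 to 1050. The highest window of the II left arm, from 4870001, overlapped too, with 787 and 491 in hrde-1 and 1310 and 523 in N2 cytoplasmic RNA.

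Whether an arm took another share of a library in hrde-1 was tested for each arm over all 12 libraries, and no arm passed after adjustment. The III left arm came nearest. In whole RNA its share of the signal above the floor was 4.35% and 4.42% in hrde-1 and 4.54% and 4.59% in N2, and in nuclear RNA 4.10% and 4.28% in hrde-1 and 4.37% and 4.46% in N2. The genotypes did not overlap in either fraction, but they did in cytoplasmic RNA, with 4.33% and 4.40% in hrde-1 and 4.29% and 4.56% in N2. The mean difference within fractions was -0.157 percentage points (two-sided exact permutation within fractions, p = 0.0370, adjusted p = 0.148 over the 4 arms), which did not pass after adjustment. With the centre of III in place of the library as denominator it was -1.79 percentage points of the centre's signal (adjusted p = 0.0370), and with the mean log2(coverage + 1) it changed sign (0.00595, adjusted p = 0.935).

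For the other 3 arms the genotypes differed by 0.0595 percentage points in the II left arm (exact permutation, adjusted p = 0.395), 0.0870 in the II right arm (0.259) and 0.0768 in the III right arm (0.519). In the III right arm the fractions differed in direction. In cytoplasmic RNA it took 5.07% and 4.98% in hrde-1 and 4.32% and 4.55% in N2. In whole RNA it took 5.04% and 5.18% in hrde-1 and 5.26% and 5.35% in N2, and in nuclear RNA 5.17% and 5.21% in hrde-1 and 5.29% and 5.43% in N2. The genotypes did not overlap in any of the 3 fractions, with hrde-1 above N2 in the cytoplasm and below it in whole and nuclear RNA. The N2 cytoplasmic libraries are also the shallowest, and the part of depth in this was not tested.

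Nuclear RNA gave a larger share than cytoplasmic RNA to 3 of the 4 arms. In the II left arm the share was 2.75% and 2.75% in hrde-1 nuclear RNA and 2.54% and 2.47% in hrde-1 cytoplasmic RNA. In N2 it was 2.77% and 2.82% in nuclear and 2.27% and 2.29% in cytoplasmic RNA. The mean difference was 0.380 percentage points in the II left arm, 0.263 in the II right arm and 0.545 in the III right arm, with no overlap in either genotype (exact permutation within genotypes, p = 0.0556, adjusted p = 0.0741 for each). The smallest p that 36 arrangements can give is 0.0556, so 0.05 could not be reached. Which arms this holds for depends on the measure. With the centre of the chromosome as denominator the difference was -0.278 in the II right arm (exact permutation, adjusted p = 0.944) and 1.56 in the III left arm (0.0741), and with the mean log2(coverage + 1) the III left arm had 0.524 (0.0556). As a share of the library, the difference in the III left arm was -0.0940 (exact permutation, p = 0.333). There the inner part, next to the centre, read 14.3 ± 0.0829 in nuclear and 16.6 ± 1.43 in cytoplasmic RNA of hrde-1, and 15.3 ± 0.302 in nuclear and 16.3 ± 0.0384 in cytoplasmic RNA of N2, while the outer part was higher in nuclear RNA, with 5.96 ± 0.0564 against 4.71 ± 0.517 in hrde-1 and 6.57 ± 0.291 against 3.92 ± 0.129 in N2.

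**Figure D2:**
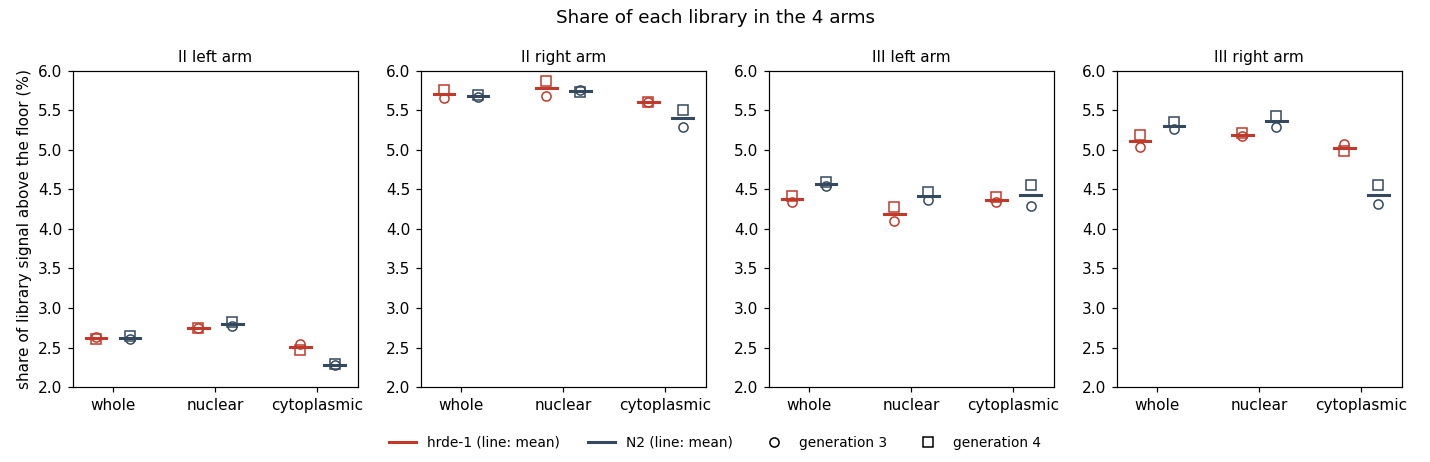
Share of the signal above the floor (%) that each arm held in each library, with hrde-1 (red) left of N2 (dark) in each fraction. Circles are generation 3, squares generation 4 and lines the mean of 2 libraries. In the III right arm the hrde-1 cytoplasmic libraries (5.07% and 4.98%) lie above the N2 cytoplasmic libraries (4.32% and 4.55%), while whole and nuclear RNA have the other order.

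Marked windows were spread unevenly over the arms. The II left arm held 17 GRTS and 3 GRH windows, the II right arm 12 GRTS and 31 GRH, the III left arm 2 GRTS and 8 GRH, and the III right arm 6 GRTS and 14 GRH. Only the II right arm had windows with both marks, 6 in number. Per 1000 windows the 4 arms held 1.91 GRTS and 2.89 GRH windows, against 0.412 and 1.65 in the centres of II and III and 1.91 and 2.14 in the whole table. Together the 87 marked windows of the arms formed 32 stretches when marked windows at most 10 windows apart were joined, a rule chosen after the values were seen. Of the 37 GRTS windows 32 passed the filter on low values, and of the 56 GRH windows 49 did.

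Over all 37 GRTS windows, tested or not, mean coverage was higher in hrde-1 than in N2 in every fraction. In whole RNA it was 9.31 ± 0.290 in hrde-1 and 0.920 ± 0.132 in N2. In nuclear RNA it was 20.4 ± 2.16 in hrde-1 and 2.44 ± 0.0791 in N2, and in cytoplasmic RNA 9.0 ± 1.34 in hrde-1 and 0.375 ± 0.213 in N2. Most GRTS windows had higher coverage in the nuclear than in the cytoplasmic fraction of hrde-1. Coverage is a normalized signal and gives no amount of RNA per fraction. Which fraction held most of this RNA was therefore not measured, here or for the stretches below. In the II left arm the 17 GRTS windows had 20.0 and 18.5 in hrde-1 nuclear RNA but 3.11 and 2.06 in hrde-1 cytoplasmic RNA. In the II right arm the 12 GRTS windows averaged 23.6 ± 2.96 in the nuclear and 22.0 ± 2.89 in the cytoplasmic fraction of hrde-1, against 2.44 ± 0.407 and 0.231 ± 0.186 in the same fractions of N2. That cytoplasmic mean rested on 5 windows in 2 places, the stretch from 13245001 and the window from 12283001, both described further on and set apart after their values were seen. These 5 windows had 34.0 ± 3.69 in hrde-1 nuclear and 51.0 ± 6.24 in hrde-1 cytoplasmic RNA. The other 7 had 16.2 ± 2.45 in hrde-1 nuclear and 1.2 ± 0.499 in hrde-1 cytoplasmic RNA, and all 7 were higher in nuclear RNA. Higher in hrde-1 nuclear than in hrde-1 cytoplasmic RNA were 15 of the 17 GRTS windows of the II left arm and 6 of 6 in the III right arm. No difference between arms was tested. The 6 GRTS windows of the III right arm averaged 21.8 ± 3.73 in hrde-1 nuclear and 4.21 ± 0.388 in hrde-1 cytoplasmic RNA. In N2 the same windows had 0.706 ± 0.369 in nuclear RNA and the floor of 0.1 in cytoplasmic RNA. The 2 GRTS windows of the III left arm had 6.51 ± 1.85 in hrde-1 and 1.86 ± 1.23 in N2 nuclear RNA and were at the floor in cytoplasmic RNA of both genotypes.

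The 50 GRH windows of the arms without a GRTS mark were closer between the genotypes, with 9.41 ± 0.0986 in hrde-1 and 5.06 ± 0.382 in N2 whole RNA, 12.0 ± 1.62 in hrde-1 and 7.64 ± 0.530 in N2 nuclear RNA, and 8.32 ± 1.41 in hrde-1 and 2.93 ± 0.0465 in N2 cytoplasmic RNA. In nuclear RNA the difference lay in the II right arm, with 14.7 ± 2.57 in hrde-1 and 6.31 ± 0.204 in N2. In the II left arm nuclear RNA read 7.14 ± 1.85 in hrde-1 and 7.22 ± 0.342 in N2, in the III left arm 8.40 ± 0.430 in hrde-1 and 7.59 ± 0.358 in N2, and in the III right arm 10.2 ± 1.06 in hrde-1 and 10.1 ± 1.25 in N2. In the II left and III right arms the nuclear means differed by less than their SDs, and the difference between arms was not tested.

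**Figure D3:**
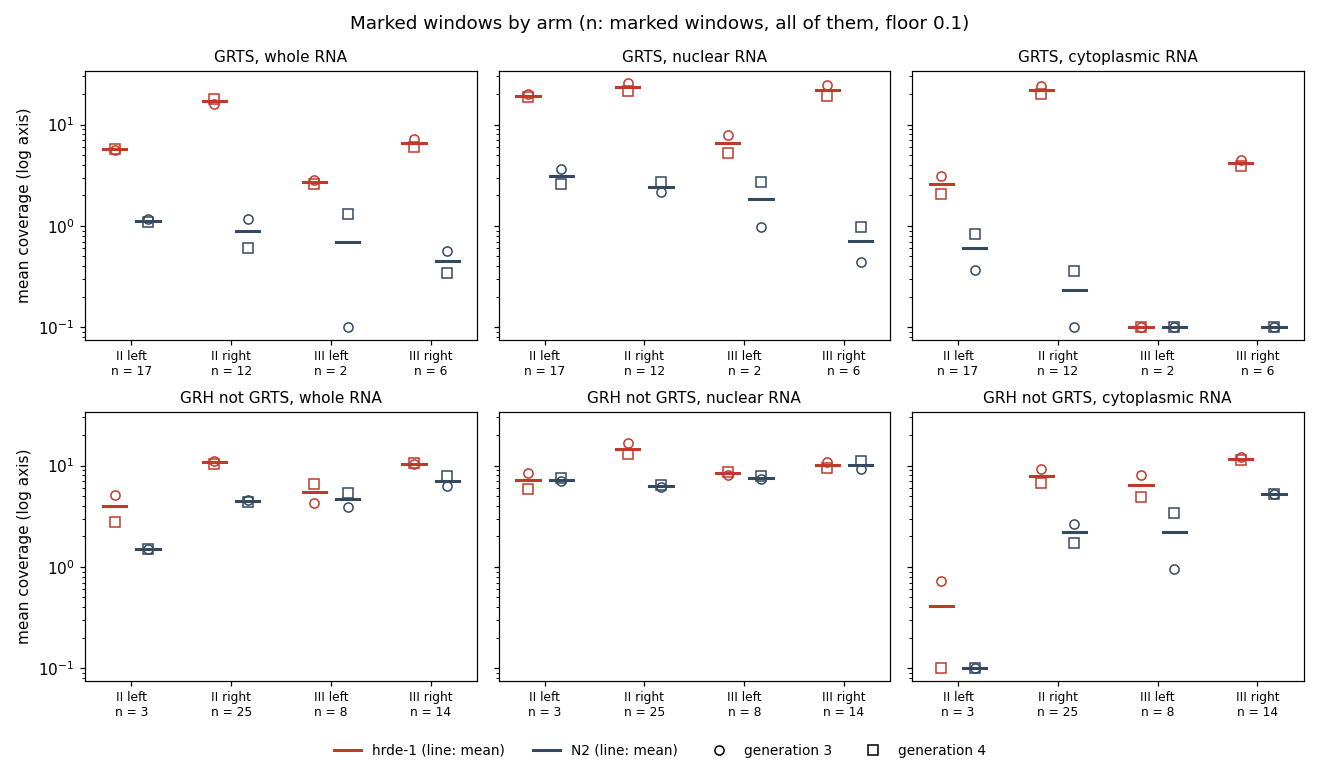
Mean coverage (log axis, floor 0.1) of all GRTS windows (top) and of GRH windows without a GRTS mark (bottom) by arm and fraction, with hrde-1 (red) left of N2 (dark), circles for generation 3, squares for generation 4 and lines for the mean. The mean of the II right arm is 23.6 in hrde-1 nuclear and 22.0 in hrde-1 cytoplasmic RNA, where 5 of its 12 GRTS windows carry the cytoplasmic mean (51.0, against 1.2 in the other 7), and that of the II left arm is 19.3 in hrde-1 nuclear and 2.58 in hrde-1 cytoplasmic RNA.

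In whole RNA, 5 arm windows rose and 1 fell in hrde-1 (limma on log2(coverage + 1), Benjamini-Hochberg adjustment over all 43933 windows, threshold 0.05), out of 9765 tested. Over all windows tested 0.0979% of windows rose and 0.00228% fell, while in the arms 0.0512% rose and 0.0102% fell. In the centres of II and III none was called in whole RNA. There 76 of 2445 and 75 of 2705 tested windows had an unadjusted p under 0.05. In nuclear RNA 17 arm windows rose and 2 fell, against 0.287% and 0.0091% of the whole table, that is 0.174% and 0.0205% of the arm windows. By arm, 3 rose in the II left arm, 7 in the II right arm, 7 in the III right arm and none in the III left arm. In the III left arm 2 windows fell, and 111 of 2381 tested windows had an unadjusted p under 0.05. In cytoplasmic RNA 66 arm windows rose and 2 fell, against 0.803% and 0.0637% of the whole table, that is 0.676% and 0.0205% of the arm windows. In the centres of II and III 0.859% and 0.739% rose in cytoplasmic RNA, and 0.286% and 0.0739% fell. In nuclear RNA 1 window fell in the centre of II and 1 rose in that of III. The arm shares that rose were below those of the table in all 3 fractions, and the 1 and 2 arm windows that fell in whole and nuclear RNA are too few to read against it. Of the 5 windows that rose in whole RNA, 4 carried a GRTS or GRH mark. So did 10 of the 17 that rose in nuclear RNA and 9 of the 66 that rose in cytoplasmic RNA. Marks were rarer among all 9765 tested arm windows, where 32 carried GRTS and 45 carried GRH alone. These shares were compared without a test. An unadjusted p (limma) under 0.05 was found for 349, 412 and 1586 of the 9765 arm windows in whole, nuclear and cytoplasmic RNA. The median log2 difference over all arm windows was -0.01, -0.14 and 0.27 in whole, nuclear and cytoplasmic RNA, against 0.00, -0.11 and 0.25 over the table.

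The largest log2 difference of the arms, 6.82 in cytoplasmic RNA, lay in a stretch of 5 marked windows on the II right arm from 13245001 to 13250000, 4 of them GRTS and 4 GRH. Its mean coverage in cytoplasmic RNA was 69.5 and 55.4 in hrde-1, from 306 reads, against the floor of 0.1 in both N2 libraries, at least 56.4-fold higher (against 3 reads over the group). In whole RNA it read 42.0 and 45.2 in hrde-1 and 0.380 and 1.78 in N2, a ratio of 42.1 (exact 95% interval for counting error only, 21.1 to 98.3). In nuclear RNA it read 35 and 34.4 in hrde-1 and 1.40 and 2.42 in N2, a ratio of 18.3 (11.2 to 31.9). The genotypes did not overlap in any fraction. Its first 3 windows rose in all 3 fractions, with a lowest adjusted p (limma) of 0.00106 for whole, 0.00539 for nuclear and 0.000332 for cytoplasmic RNA, and the window from 13249001 rose in cytoplasmic RNA alone. The peak lay in the second window, where hrde-1 had 67.6 and 72.8 in the nuclear and 149 and 101 in the cytoplasmic fraction. The 20 flanking windows had a mean of 2.27 ± 0.683 in hrde-1 and 2.09 ± 1.20 in N2 cytoplasmic RNA, a difference below their SDs.

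The stretch had higher hrde-1 coverage in the cytoplasmic than in the nuclear fraction. Its hrde-1 nuclear to cytoplasmic ratio was 0.547 (95% interval 0.458 to 0.652), and its window from 13249001 was higher in hrde-1 cytoplasmic than in hrde-1 nuclear RNA (limma, log2 difference -2.42 ± 0.680 (SE), adjusted p = 0.0479). A single window elsewhere on the arm, II from 12283001 with both marks, had a ratio of 0.932 (0.668 to 1.31), with 75.7 and 57.8 in hrde-1 nuclear RNA and 78.6 and 57.7 in hrde-1 cytoplasmic RNA. In N2 it read 1.28 and 7.46 in nuclear RNA and the floor in cytoplasmic RNA, and it rose in nuclear and cytoplasmic RNA (limma, adjusted p = 0.0212 and 0.000765) but missed the threshold in whole RNA (56.2 and 62.1 in hrde-1, 8.48 and 1.3 in N2, adjusted p = 0.0680).

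On the II left arm lay a stretch of 13 windows from 2150001 to 2163000 with 9 GRTS windows. Its hrde-1 coverage was higher in nuclear than in cytoplasmic RNA. Over its marked windows hrde-1 nuclear RNA read 30.7 and 27.0 and N2 nuclear RNA 4.91 and 3.83, a ratio of 6.66 (95% interval 5.13 to 8.76). In whole RNA the values were 7.70 and 7.46 in hrde-1 and 1.63 and 1.3 in N2, and in cytoplasmic RNA 3.94 and 2.23 in hrde-1 and 0.609 and 1.15 in N2. The groups did not overlap in any fraction. Single windows held few reads and 3 passed the test. The windows from 2151001 and 2152001 rose in nuclear RNA (lowest adjusted p = 0.0117), with 12.6 and 19.2 over both in hrde-1 and the floor in N2, and that from 2150001 rose in cytoplasmic RNA with 8 reads in hrde-1 and 0 in N2. The hrde-1 nuclear to cytoplasmic ratio of the stretch was 9.52 (6.39 to 14.8), and 6 of its marked windows were called higher in hrde-1 nuclear than in hrde-1 cytoplasmic RNA. A second stretch of 5 GRTS windows on this arm, from 2516001 to 2521000, had no called genotype difference, with 9.85 and 11.8 in hrde-1 and 2.91 and 1.74 in N2 nuclear RNA, 71 reads against 20. Its hrde-1 nuclear to cytoplasmic ratio was 13.2 (4.93 to 49.8), and 4 of its windows were called higher in hrde-1 nuclear than in hrde-1 cytoplasmic RNA.

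On the III right arm, the windows from 13235001 to 13243000 formed the longest nuclear region of the arms, with 7 of 8 windows called and 4 of them marked GRTS. Nuclear coverage was 24.9 and 20.8 in hrde-1, from 233 reads, and 0.544 and 0.573 in N2, from 7 reads, a ratio of 45.9 (95% interval 21.9 to 116; lowest adjusted p = 0.00539). Whole RNA read 5.56 and 6.59 in hrde-1 and 0.159 and 0.100 in N2, at least 24.8-fold higher, and cytoplasmic RNA 3.10 and 2.86 in hrde-1 and the floor in N2, at least 4.24-fold higher. The hrde-1 nuclear to cytoplasmic ratio was 7.53 (4.90 to 12.1). One window of this region, from 13240001, rose in all 3 fractions, with 16.5 and 12.5 in hrde-1 and the floor in N2 whole RNA (adjusted p = 0.0339). Nuclear signal was not limited to the marks. The first GRTS window of the stretch, from 13231001, read 12.9 and 18.8 in hrde-1 and 0.100 and 1.15 in N2 nuclear RNA, and 3 of the 7 unmarked windows after it were called. Just past the last marked window, both hrde-1 nuclear libraries were at the floor. On the other side, the window before the stretch read 8.45 and 14.3 in hrde-1 and 0.100 and 0.45 in N2 nuclear RNA. The 20 flanking windows had 3.59 ± 0.308 in hrde-1 and 1.07 ± 0.216 in N2 nuclear RNA.

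**Figure D4:**
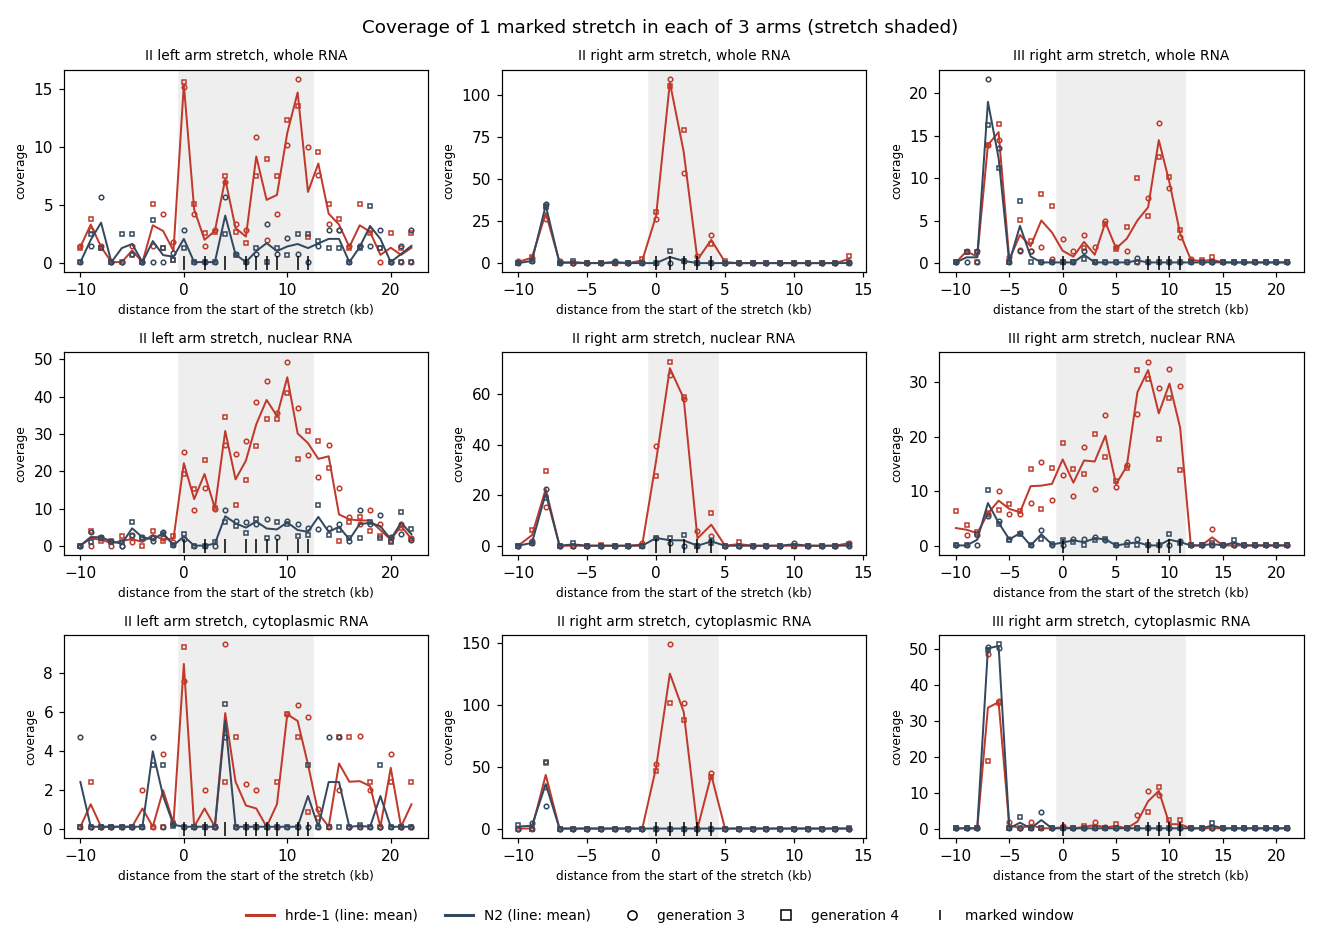
Coverage per window against the distance in kb from the start of 1 marked stretch (shaded) in the II left, II right and III right arms, for whole, nuclear and cytoplasmic RNA, with hrde-1 in red and N2 in dark. Lines are means of 2 libraries, circles generation 3, squares generation 4 and ticks at 0 the marked windows. The II right arm stretch peaks at 149 and 101 in hrde-1 cytoplasmic RNA, while the other stretches are tallest in hrde-1 nuclear RNA.

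Smaller nuclear regions lay on the II right arm. On II from 10937001 to 10940000, a stretch with 2 GRTS windows, hrde-1 nuclear RNA read 36.7 and 32.0 and N2 nuclear RNA 4.82 and 4.31 over the marked windows. The called window there was the unmarked one between them, from 10938001, with 40.6 and 37.1 in hrde-1 and 1.28 and 0.100 in N2 (adjusted p = 0.0154), 50 reads against 1. In cytoplasmic RNA the marked windows of this stretch together held 1 read in hrde-1 and 0 in N2, and so did the window from 10938001. On II from 15001001 to 15003000, hrde-1 nuclear RNA read 17.4 and 13.5 and N2 nuclear RNA 0.100 and 0.110, at least 17.9-fold higher (adjusted p = 0.00924), with 3 reads in hrde-1 and 0 in N2 cytoplasmic RNA.

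Not every window that rose carried a mark. II from 582001 to 583000, on the outer II left arm and outside the marked stretches, rose in all 3 fractions. In whole RNA it read 27.5 and 24.9 in hrde-1 and 0.100 and 1.3 in N2. In nuclear RNA it read 67.6 and 68.3 in hrde-1 and 2.46 and 2.20 in N2, and in the cytoplasmic fraction 20.7 and 34.6 in hrde-1 and the floor in N2. The nuclear ratio was 30.4 (95% interval 11.4 to 114), with an adjusted p of 0.00671 for whole, 0.00393 for nuclear and 0.00134 for cytoplasmic RNA. With the windows of II from 13245001 and III from 13240001, it made up the 5 arm windows that rose in all 3 fractions, out of 77 that rose in any. II from 1847001, unmarked too, rose in cytoplasmic RNA, with 52.5 and 56.5 in hrde-1 and 0.100 and 3.25 in N2 (adjusted p = 0.0016). It also read higher in whole RNA, with 52.1 and 39.1 in hrde-1 and 2.89 and 6.12 in N2, and did not pass there (adjusted p = 0.0686).

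Most cytoplasmic calls were of another kind. The 66 windows that rose in hrde-1 cytoplasmic RNA fell into 63 regions, of which 62 were single windows, and 57 of the 66 had no mark. In 34 of these 57 both N2 cytoplasmic libraries were at the floor, while none of the 57 was at the floor in both N2 whole or both N2 nuclear libraries. Their median log2 difference was 3.03 in cytoplasmic RNA, where it was chosen, but -0.09 in whole RNA and 0.01 in nuclear RNA, and 1 was called in whole and 1 in nuclear RNA, the window from 582001. III from 9830001 shows the pattern. It read 22.5 and 39.3 in hrde-1 and the floor in N2 cytoplasmic RNA (29 reads against 0, adjusted p = 0.000352), but 12.4 and 22.4 in hrde-1 and 22.4 and 21.8 in N2 whole RNA, and 17.4 and 16.7 in hrde-1 and 11.9 and 16.9 in N2 nuclear RNA. The 9 marked windows that rose in cytoplasmic RNA had a median log2 difference of 3.73 in whole and 3.03 in nuclear RNA. Among them was III from 9240001, marked GRH and named here after its values were seen, which read 41.2 and 34.6 in hrde-1 and 4.68 and 3.25 in N2 cytoplasmic RNA (adjusted p = 0.0491) but 7.81 and 6.48 in hrde-1 and 8.36 and 6.41 in N2 nuclear RNA.

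The cytoplasmic calls moved with scaling and with the libraries fitted. The 2 N2 cytoplasmic libraries held the fewest reads, and their part in these calls was not tested. Scaling each library to the same median, which moved the median log2 difference of the table to -0.08 in place of 0.25, gave 17 arm windows that rose and 10 that fell, in place of 66 and 2. A limma fit of the 4 cytoplasmic libraries alone called 0 arm windows, with 963 at an unadjusted p under 0.05. The named single windows held 8 to 29 reads in hrde-1 and 0 or 1 in N2 on II from 1405001, 467001, 14688001 and 13863001, and on III from 3908001, 83001, 3862001, 855001, 9830001, 12270001 and 10898001. Leaving out any library except an N2 cytoplasmic one left 11 to 20 arm calls, in place of 68, and leaving out the N2 cytoplasmic library of generation 3 or 4 gave 254 or 968. Of these 11 windows, 9830001 held without any single library, 12270001 was lost when either cytoplasmic library of hrde-1 was left out, with an adjusted p of up to 0.0827, and the other 9 were lost without each of 4 to 11 of the libraries in turn (0.110 to 0.204).

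The windows that fell were few and lay on the III left arm. Without the filter on low values more were called lower than higher in nuclear RNA, 186 against 87. III from 4175001 to 4176000 read 79.5 and 66.9 in hrde-1 and 253 and 226 in N2 whole RNA, and 88.8 and 74.1 in hrde-1 and 217 and 234 in N2 nuclear RNA. These ratios were 0.305 (95% interval 0.245 to 0.378; limma, adjusted p = 0.00847) and 0.354 (0.282 to 0.440; adjusted p = 0.0175). In cytoplasmic RNA it read 109 and 64.6 in hrde-1 and 160 and 180 in N2, without overlap and not called (adjusted p = 0.0650). III from 4270001 fell in cytoplasmic RNA, with 1.97 and 2.40 in hrde-1 and 13.8 and 28.4 in N2 (adjusted p = 0.0310). It had the same order in whole RNA, with 2.84 and 2.57 in hrde-1 and 22.4 and 21.8 in N2, where it was not called (adjusted p = 0.128). The highest arm window, from 4369001, fell by 0.58 on the log2 scale in cytoplasmic RNA (adjusted p = 0.0438). III from 1919001 fell in nuclear RNA on few reads, 0 in hrde-1 and 12 in N2 (adjusted p = 0.0359).

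Many of these calls needed the spread estimated over all 6 groups, and every library of the groups compared. When only the libraries of the groups compared were fitted, each of the 4 named calls in whole RNA was lost (adjusted p 0.295 to 0.596), and so was each of the 18 in cytoplasmic RNA (0.107 to 1.0), while 8 of the 9 named calls in nuclear RNA held. In the fit of all groups, without any single library, the cytoplasmic calls on II from 13245001, 12283001, 582001 and 1847001 and on III from 9830001 held, with adjusted p of at most 0.0435. With only the cytoplasmic libraries fitted, these were lost, with an adjusted p of 0.107 on II from 13245001 and 12283001, 0.208 on II from 582001 and III from 9830001, and 0.239 on II from 1847001. The whole RNA call from 13245001 was lost when either whole library of hrde-1 was left out, with an adjusted p of up to 0.087. Its nuclear call was lost when either nuclear library of hrde-1 was left out (up to 0.124). The nuclear calls on II from 582001, 2151001, 15001001 and 10938001 and on III from 13235001 were lost without any 1 of the 4 nuclear libraries (highest adjusted p 0.111, 0.207, 0.157, 0.313 and 0.108). The whole RNA call from 582001 was lost without either hrde-1 or the generation 3 N2 whole library (0.269). The calls on III from 13240001 and 4175001 in whole RNA (0.478 and 0.368), on II from 12283001 and III from 4175001 and 1919001 in nuclear RNA (0.409, 0.281 and 0.267) and on III from 4270001, 4369001 and 13240001 in cytoplasmic RNA (0.144, 0.168 and 0.122) were each lost without any of 4 to 11 libraries, taken out 1 at a time. None of the differences named by rule changed sign when a library was left out. For III from 9240001 this was not run.

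Nuclear and cytoplasmic RNA differed at many arm windows within each genotype. In hrde-1, 442 of the 9765 tested windows were higher in nuclear and 159 higher in cytoplasmic RNA, against 4.63% and 2.3% of the whole table, that is 4.53% and 1.63% of the arm windows. In N2, 1462 were higher in nuclear and 121 higher in cytoplasmic RNA, against 14% and 1.99% of the table, that is 15.0% and 1.24% of the arm windows. These counts depend on the scale. With each library scaled to the same median, 174 were higher in nuclear and 263 in cytoplasmic RNA in hrde-1, and 131 and 275 in N2. On the deposited scale the median log2 difference over all tested windows of the table was 0.30 in hrde-1 and 0.82 in N2, and with median scaling it was -0.09 and 0.06. Both genotypes shared 264 arm windows higher in nuclear RNA, which were 59.7% of the hrde-1 list and 18.1% of the N2 list. They also shared 81 higher in cytoplasmic RNA, and none went opposite ways. Over the whole table the nuclear shares were 56.3% and 18.6% and 1 window went opposite ways, so the arms were close to the table. When only the 4 libraries of a genotype were fitted, 1658 arm windows were higher in nuclear and 91 in cytoplasmic RNA in N2, and in hrde-1 0 were called (limma, lowest adjusted p = 0.0665), with 2125 at an unadjusted p under 0.05.

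Arm windows lay further to the nuclear side than windows of the centres. The median log2 difference was 0.32 in the arms and 0.14 and 0.10 in the centres of II and III in hrde-1, and 0.91 in the arms and 0.62 and 0.65 in the centres in N2. Outside chromosomes II and III this median was 0.33 in hrde-1 and 0.82 in N2, so in hrde-1 the arms were close to the rest of the table. By arm in N2 it was 0.94 and 0.83 on II left and right and 0.99 and 0.88 on III left and right. Windows of the centres also had more coverage, and among windows of like level the order of arms and centres was mixed. Of windows with a mean coverage of 1 to 3, the N2 median was 1.31 in the arms and 1.3 in the centres, and of those at 3 to 10 it was 1.11 in the arms and 1.12 in the centres. In hrde-1 these medians were 0.88 in the arms and 0.93 in the centres at 1 to 3, and 0.34 in the arms and 0.48 in the centres at 3 to 10. These levels held 3307 and 3047 of the 9765 arm windows. Of windows with a mean coverage of 10 to 30, the N2 median was 0.57 in the arms and 0.53 in the centres, and of those at 30 or more 0.32 in the arms and 0.28 in the centres. At 10 to 30 the hrde-1 median was -0.01 in the arms and -0.11 in the centres, and at 30 or more -0.11 in the arms and -0.14 in the centres. These medians are descriptions without a test.

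**Figure D5:**
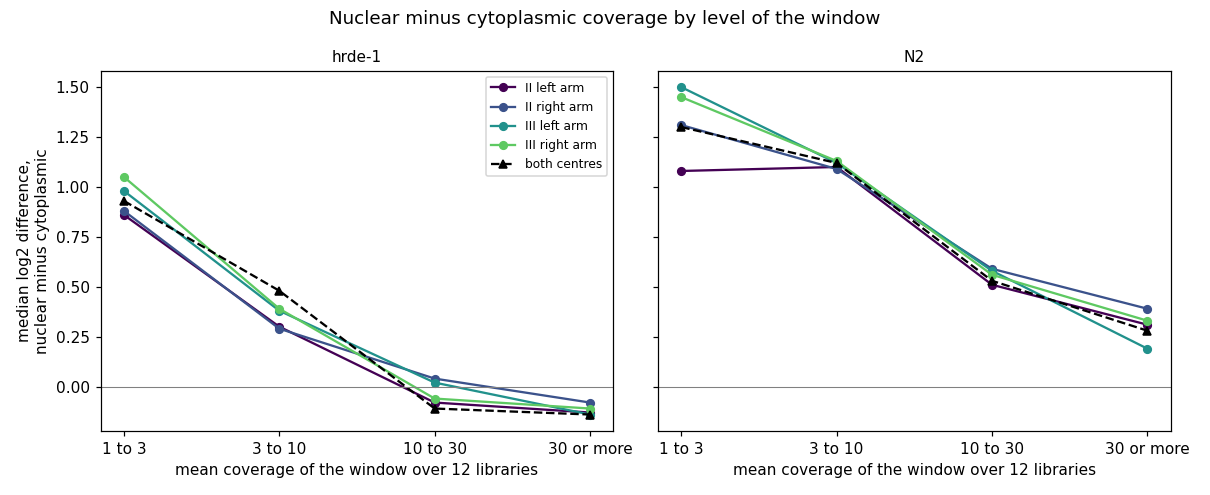
Median log2 difference between nuclear and cytoplasmic coverage of windows grouped by their mean coverage over the 12 libraries, for hrde-1 (left) and N2 (right), with 1 line per arm and a dashed line for both centres. The median over all 4 arms is lower at each higher level in both genotypes, from 1.31 to 0.32 in N2 and 0.88 to -0.11 in hrde-1, though in N2 the II left arm has 1.08 at the lowest level and 1.10 at the next. At 3 to 10 in hrde-1 the centres (0.48) lie above the II right arm (0.29).

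Among windows called the same way in both genotypes, those furthest to the nuclear side were named. On the II right arm, the window from 11532001 had 62.0 and 72.8 in the nuclear and 0.100 and 0.330 in the cytoplasmic fraction of hrde-1 (limma, adjusted p = 1.49e-05). In N2 it had 87.4 and 68.8 in the nuclear and 0.100 and 3.25 in the cytoplasmic fraction (adjusted p = 1.95e-05). It was at least 22.1-fold higher in nuclear RNA of hrde-1. The window from 10925001 had 29 nuclear and 0 cytoplasmic reads in hrde-1, and 54 and 0 in N2. On the II left arm those from 2281001 and 1937001, and on the III right arm that from 11600001, held 17 to 23 nuclear and 0 cytoplasmic reads in hrde-1 and 24 to 30 nuclear and 0 cytoplasmic reads in N2. Without the generation 3 N2 nuclear library the N2 call from 11600001 was lost (adjusted p = 0.0556). III from 13162001, 1 window left of a GRH window, was nuclear too and read 34.8 and 26.9 in hrde-1 and 3.64 and 4.31 in N2 nuclear RNA, but this genotype difference did not pass (limma, log2 difference 2.67, adjusted p = 0.218). Its N2 nuclear to cytoplasmic call was lost without any N2 nuclear or N2 cytoplasmic library (highest adjusted p 0.178). III from 1439001 had 24 nuclear and 2 cytoplasmic reads in hrde-1 and 54 and 0 in N2, and III from 1622001 had 12 and 0 in hrde-1 and 31 and 0 in N2. Their hrde-1 calls were each lost without 3 of the hrde-1 nuclear and cytoplasmic libraries, taken out in turn (highest adjusted p 0.195 and 0.0638).

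The windows furthest to the cytoplasmic side included some of the most covered. II from 13834001 read 40.6 and 51.1 in hrde-1 nuclear RNA and 830 and 1220 in hrde-1 cytoplasmic RNA, a ratio of 0.0465 (95% interval 0.0353 to 0.0603). In N2 it read 67.3 and 53.7 in nuclear and 1720 and 1660 in cytoplasmic RNA, a ratio of 0.0356 (0.0289 to 0.0435). II from 14804001 had ratios of 0.0488 in hrde-1 and 0.0305 in N2, and III from 11352001 0.0350 in hrde-1 and 0.0331 in N2. On the III left arm, 4362001 had ratios of 0.145 in hrde-1 and 0.0714 in N2. None of the named windows on the nuclear or cytoplasmic side carried a GRTS or GRH mark.

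Whether hrde-1 changed the balance of nuclear against cytoplasmic RNA was tested window by window, and 0 arm windows passed (limma, lowest adjusted p = 0.181), with 1114 at an unadjusted p under 0.05. The same test of nuclear against whole RNA passed at 0 windows, with 269 at an unadjusted p under 0.05. Both tests covered 9765 arm windows. Over the 43933 windows tested in the table, 5061 and 1215 were under 0.05, in that order. Without any difference, windows fall under 0.05 at a rate of 0.05. The test against whole RNA stayed below that rate, while the test of nuclear against cytoplasmic RNA lay above it, in the arms and in the table. What raised it was not tested. The arm window nearest the threshold was III from 9830001, where N2 had no cytoplasmic reads (adjusted p = 0.181). For II from 13249001, with 3.96 and 12.8 in hrde-1 and 2.46 and 1.15 in N2 nuclear RNA but 45.0 and 41.6 in hrde-1 and the floor in N2 cytoplasmic RNA, the interaction was -3.73 ± 0.961 (SE, adjusted p = 0.220), and for II from 10938001 it was 3.93 ± 1.06 (adjusted p = 0.231). These opposite signs are values and not called differences.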

How the data were processed

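The 12 libraries came from 2 genotypes, 3 fractions and 2 generations, 2 libraries per group. The values deposited by the authors are a normalized coverage signal in 100257 windows of 1000 bases, with a floor of 0.1 and marks for GRTS and GRH windows. Bowtie 0.12.7 is named in the submitters' processing notes. The sources used here give no genome build, no use of strand and no rule for reads with several matches, and positions are those of the table. A reference of another build was not used, so windows carry no gene names and no sequence.

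Coverage was read as log2(coverage + 1), which understates changes of low windows. Windows with a mean of at least 1 (43933 of the table) entered 1 limma 3.58.1 fit (R 4.3.3, trended variance, 6 residual degrees of freedom) of all 6 groups, with Benjamini-Hochberg adjustment over all of them and a threshold of 0.05. The fit takes the spread of a window to be the same in all 6 groups, although the value of 1 read differed between libraries. The step was tested on simulated data. Shares of the signal above the floor were compared by exact permutation within fractions or genotypes (Python 3.11.15, pandas 2.3.3, numpy 2.4.6, scipy 1.17.1). Low values below 40 lay on whole multiples of 1 read (1.052 to 4.5795 coverage units) for 77.1% to 89.7% of them, within a tolerance of 0.0065. Reads printed are sums divided by that value and are approximate, so no count test was run on them. Intervals are exact at 95% and cover counting error only. A fold against a group with no reads was set against 3 reads over the group, as a bound.

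Called windows at most 1 window apart were merged into regions. The text names, per comparison and arm, up to 4 regions that rose and 2 that fell with the most called windows, moving the same way in both generations. The rule also picked, per arm, the 2 windows furthest to each side between nuclear and cytoplasmic RNA among those called alike in both genotypes, and the 2 highest windows. Of these last 2 kinds, some are not printed. Other windows and the stretches of marked windows were chosen after their values were seen. The arms, lists and tests were chosen with earlier results of these data known. Alternatives were other pseudocounts, filters, scalings and fits, a generation block, other denominators and each library left out.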

Additional observations from a re-analysis of the deposited data

Results flagged for a closer look

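In 2 arms the difference between hrde-1 and N2 in the share of library signal went opposite ways in different fractions, with every library of each genotype on its side. In the II left arm the hrde-1 minus N2 difference was 0.227 percentage points in cytoplasmic RNA and -0.0416 in nuclear RNA, a gap of 0.269. In the III right arm it was 0.593 in cytoplasmic RNA, -0.195 in whole RNA and -0.167 in nuclear RNA, a gap of 0.788 between cytoplasmic and whole RNA and of 0.760 between cytoplasmic and nuclear RNA. These gaps were not tested. The 2 N2 cytoplasmic libraries, the low ones in both arms, held 191276 and 263410 read equivalents, against 361862 to 907993 in the other 10, and the part of depth in these gaps was not tested.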

How the results depend on the processing

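Counts of called arm windows moved with the settings. In whole RNA, 6 calls became 2 with a pseudocount of 0.1, 61 with no filter and 0 in a fit of only the groups compared. In nuclear RNA, 19 became 0 with a pseudocount of 0.1, 60 with 10, 273 with no filter (87 higher and 186 lower, in place of 17 and 2) and 5 with a minimum mean of 10. In cytoplasmic RNA, 68 became 198 with a pseudocount of 0.1, 27 with 10, 27 with median scaling and 0 in a fit of only the groups compared. Between nuclear and cytoplasmic RNA, 1583 calls in N2 became 520 with a minimum mean of 10 and 406 with median scaling, and 601 in hrde-1 became 275 with a minimum mean of 10 and 0 in a fit of only the groups compared. The genotype difference of nuclear against cytoplasmic RNA had 0 calls, against 4 with a pseudocount of 10 and 264 with no filter, and that of nuclear against whole RNA 0, against 240 with no filter. The cause of these moves was not tested.

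Leaving out 1 library gave 0 to 12 calls between the genotypes for whole RNA, 0 to 21 for nuclear RNA and 11 to 968 for cytoplasmic RNA. It gave 196 to 1762 for nuclear against cytoplasmic RNA in N2 and 157 to 921 in hrde-1. It gave 0 to 524 for the genotype difference of nuclear against cytoplasmic RNA, and 0 to 0 for that of nuclear against whole RNA. The share differences between hrde-1 and N2 ranged from 0.0472 to 0.0719 in the II left arm, 0.0519 to 0.122 in the II right arm, -0.202 to -0.112 in the III left arm and 0.0384 to 0.115 in the III right arm. Those between nuclear and cytoplasmic RNA ranged from 0.361 to 0.398, 0.210 to 0.315, -0.161 to -0.0267 and 0.487 to 0.603 in the same order of arms. Of the 63 differences picked by rule, printed or not, 33 kept their call without any single library and none reversed.

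With the centre of the chromosome as denominator, the share difference between hrde-1 and N2 was -0.746 in the II right arm (exact permutation, adjusted p = 0.889), reversed, and -1.79 in the III left arm (adjusted p = 0.0370), where it passed. The difference between nuclear and cytoplasmic RNA was then -0.278 in the II right arm (0.944) and 1.56 in the III left arm (0.0741), both reversed. With the mean log2(coverage + 1), the III left arm reversed to 0.00595 between the genotypes (0.935) and to 0.524 between the fractions (0.0556).

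Libraries of the same generation deviated together only weakly, with positive correlations of 0.011 to 0.079 over the 15 pairs of groups. Many windows hold few reads, and counting noise lowers such correlations. They therefore cannot decide whether libraries of a generation share a culture or batch. With the generation as a replicate block, calls were 6 in whole RNA, 15 in nuclear RNA, 84 in cytoplasmic RNA, 1628 and 614 between the fractions in N2 and hrde-1, and 0 for both genotype differences. Of the differences picked by rule, 61 kept their call under this block and 2 did not, but in a fit of only the groups compared 24 kept it and 39 did not. Depth limits low windows most in N2 cytoplasmic RNA, where 1 read was worth 3.148 or 4.5795 coverage units.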
